A study of Rattus norvegicus with 12 samples.

Results

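Every exchange of protein and RNA between nucleus and cytoplasm passes through the nuclear pore complex, a ring built from many copies of the nucleoporins. Its inner ring and the Y-shaped subcomplexes of its outer rings form the scaffold, nucleoporins with phenylalanine-glycine (FG) repeats fill the channel, and filaments and a basket extend from the cytoplasmic and nuclear faces. Cargo is carried by karyopherins, the importins and exportins, whose loading and release follow the gradient of the small GTPase Ran in its GTP form. The genes described here were those whose symbol named a numbered nucleoporin (Nup), an importin (Kpna, Kpnb, Ipo, Tnpo), an exportin (Xpo, Cse1l), Ran, or a numbered Ran-binding protein (Ranbp). The rule used no measured value, but it was chosen with earlier results of these data known. Of the 14217 genes tested 52 met it, with 79 probe sets between them. Where several probe sets measured a gene, the brightest by mean RMA signal was used.

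The cells were F111, a fibroblast line from Fischer rats, and the labels name no transgene or drug in either group. A16 cells were kept on plastic for 16 h. NA16 cells were kept for the same 16 h in suspension on agarose, where they could not attach. These are bulk RNA samples, in which a smaller share of cells that express a gene and less of its RNA per cell cannot be told apart. The study uses the name NA16 for the survivors of this culture, most cells having lost viability by then, and how survivors were separated from dying cells before RNA extraction was not found in its methods. Both groups came from 1 cell line in medium with fetal calf serum. Each state was measured on 3 Affymetrix rat arrays, named biological replicate 1, technical replicate 2 and biological replicate 2, and array values below follow that order. The comparison asked how transcript levels differ after the loss of adhesion. Values are log2 RMA intensities. The labels do not state which biological replicate technical replicate 2 repeats. It was averaged with biological replicate 1, whose full label also reads technical replicate 1. Means, SDs and tests are therefore over n = 2 per state, and this small number bounds how precise they can be.

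In NA16 this averaging did not join the most similar arrays. Over all genes the A16 technical replicate 2 array correlated most with biological replicate 1 (r = 0.9975, against 0.9935 with biological replicate 2). In NA16 it correlated most with biological replicate 2 (r = 0.9974, against 0.9923 with biological replicate 1), and these were the closest pair of arrays for 38 of the 52 genes. Calls among the 52 genes that this changed, and the counts of the other transport genes, are given with the other averaging as well. Of the fibroblast markers 8 of 10 lay above the median level of all genes in A16, among them Col1a1, Col1a2 and Vim. Of the macrophage markers 1 of 7 did, of the epithelial 1 of 6, of the endothelial 0 of 4 and of the muscle and fat markers 1 of 5. In NA16 4 fibroblast, 2 macrophage, 2 epithelial, 1 endothelial and 1 muscle and fat marker were called higher and 0 markers lower. The summed signal of the epithelial list, carried by Krt8, lay between 10.35 and 10.53 in A16 and between 11.41 and 11.64 in NA16 arrays, and that of the muscle and fat list, carried by Des, between 9.84 and 9.98 and between 11.44 and 12.15. Cdh1, Myog and Adipoq lay below the median level. Control probe sets at the 3′ end of beta-actin exceeded those at the 5′ end by 0.37 to 0.44 in A16 and by 0.87 to 0.93 in NA16, while for Gapdh this difference lay between -0.07 and 0.06 in both states. The part of these differences in the results below was not tested.

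Lower levels in suspension prevailed among the genes of the pore and its carriers. Of the 52 genes, 29 were lower in NA16 than in A16 at an adjusted p below 0.05 and 3 were higher. Among all genes 16.9% were lower and 21.9% higher by the same rule. At least 2-fold differences were seen for 20 of the lower genes and 0 of the higher ones, where 6.12% of all genes were lower and 7.74% higher by this size. The median log2 change of the 52 genes was -0.71, and that of all genes 0.01. On 36 genes all 3 NA16 arrays lay below all 3 A16 arrays and on 4 they lay above, against 23.9% and 27.8% of all genes. Of the 52 genes 46 lay above the median level of all genes. In a fit on the brighter genes alone 27 of these 46 were lower and 3 higher, against 26.9% and 29.3% of the genes in that fit. The tests were limma fits with Benjamini-Hochberg adjustment over all genes of the fit. By the methods' t-test on the same values 25 of the 52 genes were lower and 2 higher at an unadjusted p below 0.05. Among all 14217 genes, 4643 passed this threshold in either direction. After Benjamini-Hochberg adjustment 0 of the 52 genes were called, as only 20 of all genes were.

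**Figure D1:**
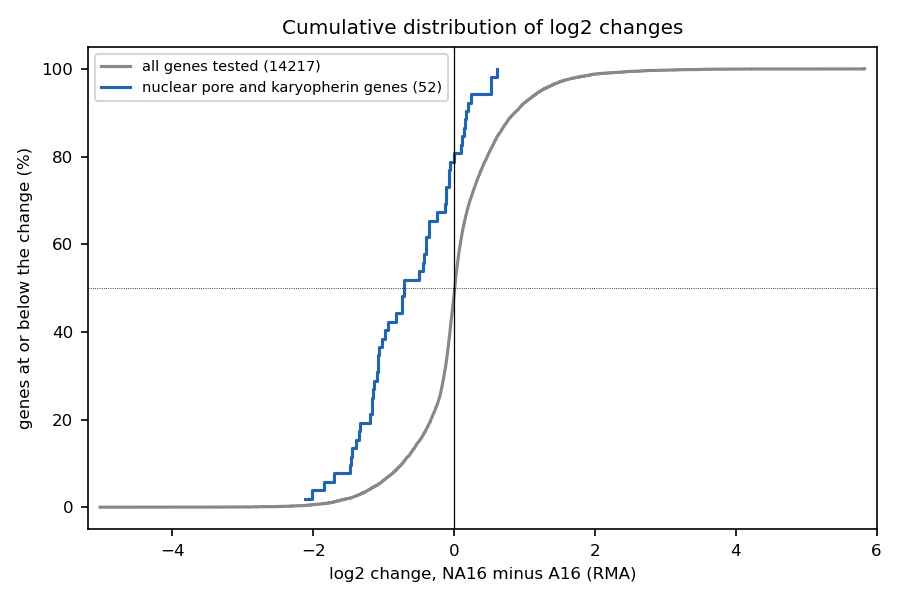
Percentage of genes (y axis) at or below each log2 change of NA16 against A16 (x axis), for the 52 nuclear pore and karyopherin genes and for all 14217 genes tested. The curve of the 52 genes lies to the left of that of all genes, with medians of -0.71 and 0.01.

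Among the nucleoporins of the 52 genes the 5 largest falls lay in the scaffold. All 5 measured nucleoporins of the inner ring, which holds the pore to the membrane and anchors the channel, were lower by more than 2-fold, with a median log2 change of -1.49. Nup205, one of its largest subunits, read 11.49, 11.53 and 11.29 in A16 and 9.56, 9.35 and 9.31 in NA16. It fell from 11.40 ± 0.16 to 9.38 ± 0.10 (SD, n = 2), 4.04-fold lower, with a log2 change of -2.01 (SE 0.13, adjusted p = 9.3e-05). Nup93, which links the inner ring to the channel nucleoporins, read 11.78, 11.86 and 11.71 in A16 and 9.81, 9.90 and 9.97 in NA16 and was 3.61-fold lower, with a log2 change of -1.85 (SE 0.12, adjusted p = 8.2e-05). For both genes the difference between the states far exceeded the SD of either. Nup188, the relative of Nup205 that occupies an alternative place in the ring, read 10.21, 10.52 and 10.19 in A16 and 8.45, 8.78 and 8.97 in NA16, 2.80-fold lower. Nup35, a subunit that touches the membrane, read 11.51, 11.69 and 11.31 in A16 and 10.53, 10.21 and 10.21 in NA16, 2.24-fold lower. The arrays of the states did not overlap for either, although NA16 biological replicate 1 was the lowest NA16 array for Nup188 and the highest for Nup35. Nup155, which also contacts the membrane, completed the ring with a log2 change of -1.14 (adjusted p = 3.7e-04).

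In the Y complex, the coat-like unit of the outer rings, 4 of the 6 subunits among the 52 genes were lower, 1 was higher and 1 was not called. Sec13 and Seh1l, whose symbols fall outside the rule, are given with the other nucleoporins. Nup85 read 11.43, 11.54 and 11.58 in A16 and 9.35, 9.36 and 9.47 in NA16. This was the largest fall of all 52 genes, from 11.53 ± 0.07 to 9.41 ± 0.08 (SD, n = 2) or 4.35-fold lower, with a log2 change of -2.12 (SE 0.12, adjusted p = 6.6e-05). Nup133, at the tip of the stalk, read 9.48, 9.64 and 9.59 in A16 and 7.83, 8.11 and 8.28 in NA16 and was 2.73-fold lower. Nup107, its partner in the stalk, read 11.01, 11.14 and 10.79 in A16 and 9.85, 9.55 and 9.49 in NA16, 2.54-fold lower. Nup160, in one arm of the Y, read 10.03, 10.05 and 9.89 in A16 and 8.98, 8.93 and 8.80 in NA16, 2.12-fold lower. For these 4 core subunits the adjusted p lay between 6.6e-05 and 6.3e-04, and every NA16 array lay below every A16 array. The other subunits in the count are small propeller proteins. Nup43 had a log2 change of -0.44 and was not called (adjusted p = 0.0865, 95% interval -0.85 to -0.03), though its arrays did not overlap, and it was called lower in 7 of 17 alternative settings. Nup37 read 11.28, 11.26 and 11.13 in A16 and 11.82, 11.74 and 11.65 in NA16, 1.43-fold higher, with a log2 change of 0.52 (SE 0.12, adjusted p = 0.0132), so that it went against its complex by the probe set that stood for it. The Nup37 call did not hold throughout: its second, dim probe set had a log2 change of -0.19, the mean of both gave 0.16 (adjusted p = 0.28), and without A16 replicate 2 or NA16 replicate 1 the adjusted p was 0.0684 and 0.109.

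The FG nucleoporins and the filaments showed few calls. Nup58, which forms a trimer with Nup54 and Nup62 in the channel, read 10.89, 10.90 and 10.78 in A16 and 9.87, 9.83 and 9.70 in NA16 and was 2.09-fold lower, with a log2 change of -1.06 (SE 0.12, adjusted p = 6.3e-04). Its trimer partners were not called. Nup62 had a log2 change of -0.12 (SE 0.11, adjusted p = 0.481) and a 95% interval of -0.39 to 0.14, and Nup54 was at -0.0035 with an interval of -0.38 to 0.38. The difference of Nup58 from its partners was not itself tested. Nup98, an FG nucleoporin whose gene also encodes the Y complex subunit Nup96, had a log2 change of -0.08 by its brighter probe set and of -0.76 by its dimmer one, which was called lower (adjusted p = 0.0130 over all probe sets). None of the 4 cytoplasmic filament genes among the 52 was called by its brightest probe set: Nup214 was at -0.40 (adjusted p = 0.0549), Ranbp2 at -0.13, Nup88 at 0.15 and Nup42, which works in messenger RNA export, at 0.23. Another probe set of Nup214, at -0.54, was called lower (adjusted p = 0.0339 over all probe sets). Nup214 lay close to the threshold and was called lower in 8 of 17 alternatives, among them the PLIER columns (-0.52) and arrays centred on their medians (-0.48). In the nuclear basket Nup153 read 11.83, 11.73 and 11.73 in A16 and 10.89, 10.58 and 10.57 in NA16 and was 2.14-fold lower, with a log2 change of -1.10 (SE 0.12, adjusted p = 5.1e-04). Nup50, a mobile basket protein that helps release importin alpha cargo, was at -0.40 (adjusted p = 0.0698) with arrays that did not overlap. The membrane nucleoporin Nup210 (-0.06) and Nup62cl (0.10), a Nup62-like gene, were dim on these arrays and were not called.

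**Figure D2:**
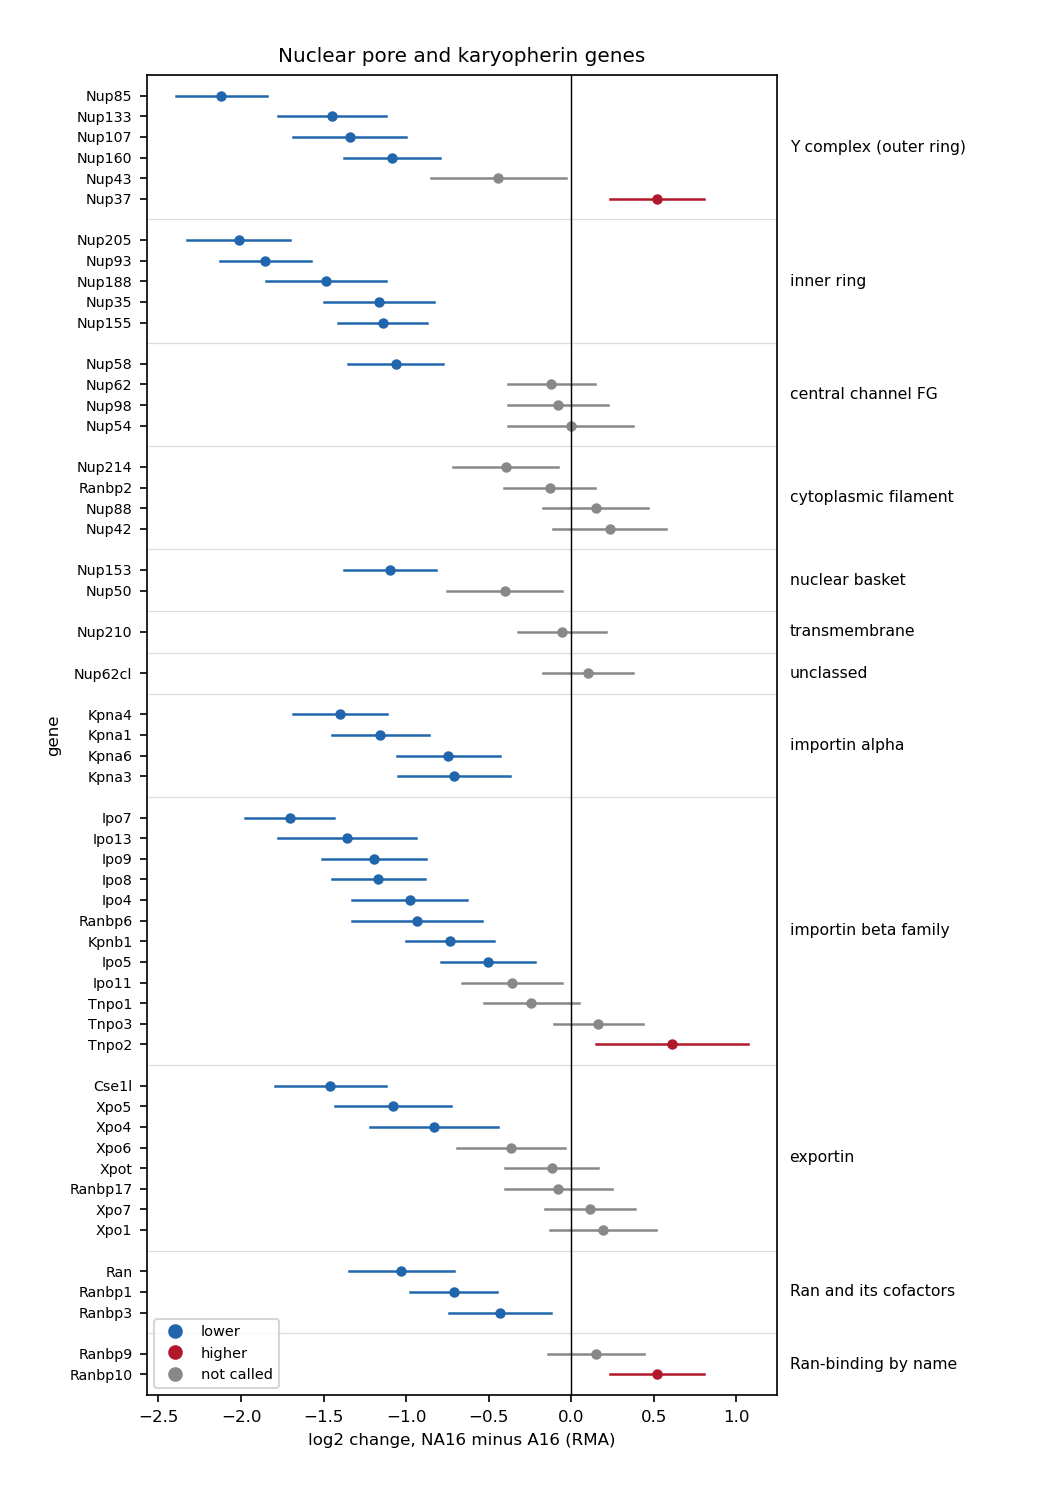
Log2 change of NA16 against A16 (x axis) for each of the 52 genes (y axis), grouped by role. Points are estimates from 2 replicates per state and bars 95% intervals of limma. All 5 inner ring genes lie below -1, from -1.14 to -2.01, while the 4 cytoplasmic filament genes lie between -0.40 and 0.23.

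Among the importins the falls were broad. Importin alpha proteins are the adaptors that read classical nuclear localisation signals, and all 4 measured members were lower. Kpna4 read 12.23, 12.27 and 12.09 in A16 and 10.58, 10.88 and 10.82 in NA16 and was 2.64-fold lower, with a log2 change of -1.40 (SE 0.12, adjusted p = 2.2e-04). Kpna1 read 10.45, 10.77 and 10.41 in A16 and 9.53, 9.28 and 9.30 in NA16, 2.23-fold lower. Kpna6 read 9.10, 9.19 and 8.90 in A16 and 8.23, 8.23 and 8.33 in NA16, 1.68-fold lower. Kpna3 read 11.39, 11.45 and 11.13 in A16 and 10.69, 10.62 and 10.47 in NA16, 1.64-fold lower (adjusted p = 0.00708). For each of the 4 genes the states did not overlap. The sizes differed between probe sets, with -0.67 and -0.23 for the other 2 of Kpna1 and -0.22 for the other of Kpna6. Kpna2 was represented only by a probe set annotated to 2 genes and was not analysed here.

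Of 12 genes of the importin beta family 8 were lower and 1 higher. Kpnb1, the importin beta that carries importin alpha and its cargo, read 12.32, 12.43 and 12.31 in A16 and 11.62, 11.69 and 11.56 in NA16 and was 1.66-fold lower, with a log2 change of -0.73 (SE 0.11, adjusted p = 0.00225). A second probe set of Kpnb1 had a log2 change of -0.93. Ipo7, a carrier of ribosomal proteins and of linker histone, changed most in the family: it read 12.06, 12.10 and 12.08 in A16 and 10.54, 10.33 and 10.32 in NA16, 3.26-fold lower, with a log2 change of -1.70 (SE 0.11, adjusted p = 1.0e-04). Ipo8, its closest relative, read 10.78, 10.69 and 10.71 in A16 and 9.73, 9.55 and 9.47 in NA16, 2.25-fold lower. A second Ipo8 probe set fell less, at -0.71, and was called lower. Ipo9, a histone carrier, read 11.67, 11.68 and 11.93 in A16 and 10.41, 10.67 and 10.67 in NA16, 2.29-fold lower. Ipo13, which works in both directions, read 9.94, 10.24 and 10.14 in A16 and 8.25, 8.77 and 9.01 in NA16, 2.56-fold lower. All 3 NA16 arrays lay below the A16 arrays for these 4 importins. The spread was widest in Ipo13, where NA16 biological replicate 1 lay well below the other NA16 arrays. Ipo4 (-0.98) and Ranbp6 (-0.94) were lower with adjusted p = 0.00204 and 0.00417. Ipo5, a carrier of ribosomal proteins, had a log2 change of -0.50 (adjusted p = 0.0147), and this call was lost without technical replicate 2 (0.0674), without A16 replicate 2 (0.0747) or without NA16 replicate 1 (0.109). Other probe sets of Ipo5 were at -0.84 (called lower) and, for a dim one, at -0.01 (not called). Ipo11 was at -0.36 (adjusted p = 0.0665).

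None of the 3 transportins, importins that carry RNA-binding proteins, was called lower by its brightest probe set. Tnpo2 read 10.64, 10.66 and 11.07 in A16 and 11.16, 11.37 and 11.68 in NA16. It was 1.53-fold higher, with a log2 change of 0.61 (SE 0.19, adjusted p = 0.0436), and the arrays of the states did not overlap, although the highest A16 array came close to the lowest NA16 array. The Tnpo2 call was lost with adjustment over all probe sets (adjusted p = 0.075), without technical replicate 2 (adjusted p = 0.127), without A16 replicate 1 (0.21) or NA16 replicate 2 (0.164), and with technical replicate 2 averaged with biological replicate 2 in NA16 (0.119). Tnpo1, its close relative, was at -0.24 (adjusted p = 0.174), although 1 of its dimmer probe sets was called lower at -0.39 (adjusted p = 0.0393 over all probe sets), and Tnpo3, the carrier of SR splicing factors, at 0.16 (adjusted p = 0.336). The difference between the transportins and the other importins was not tested.

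**Figure D3:**
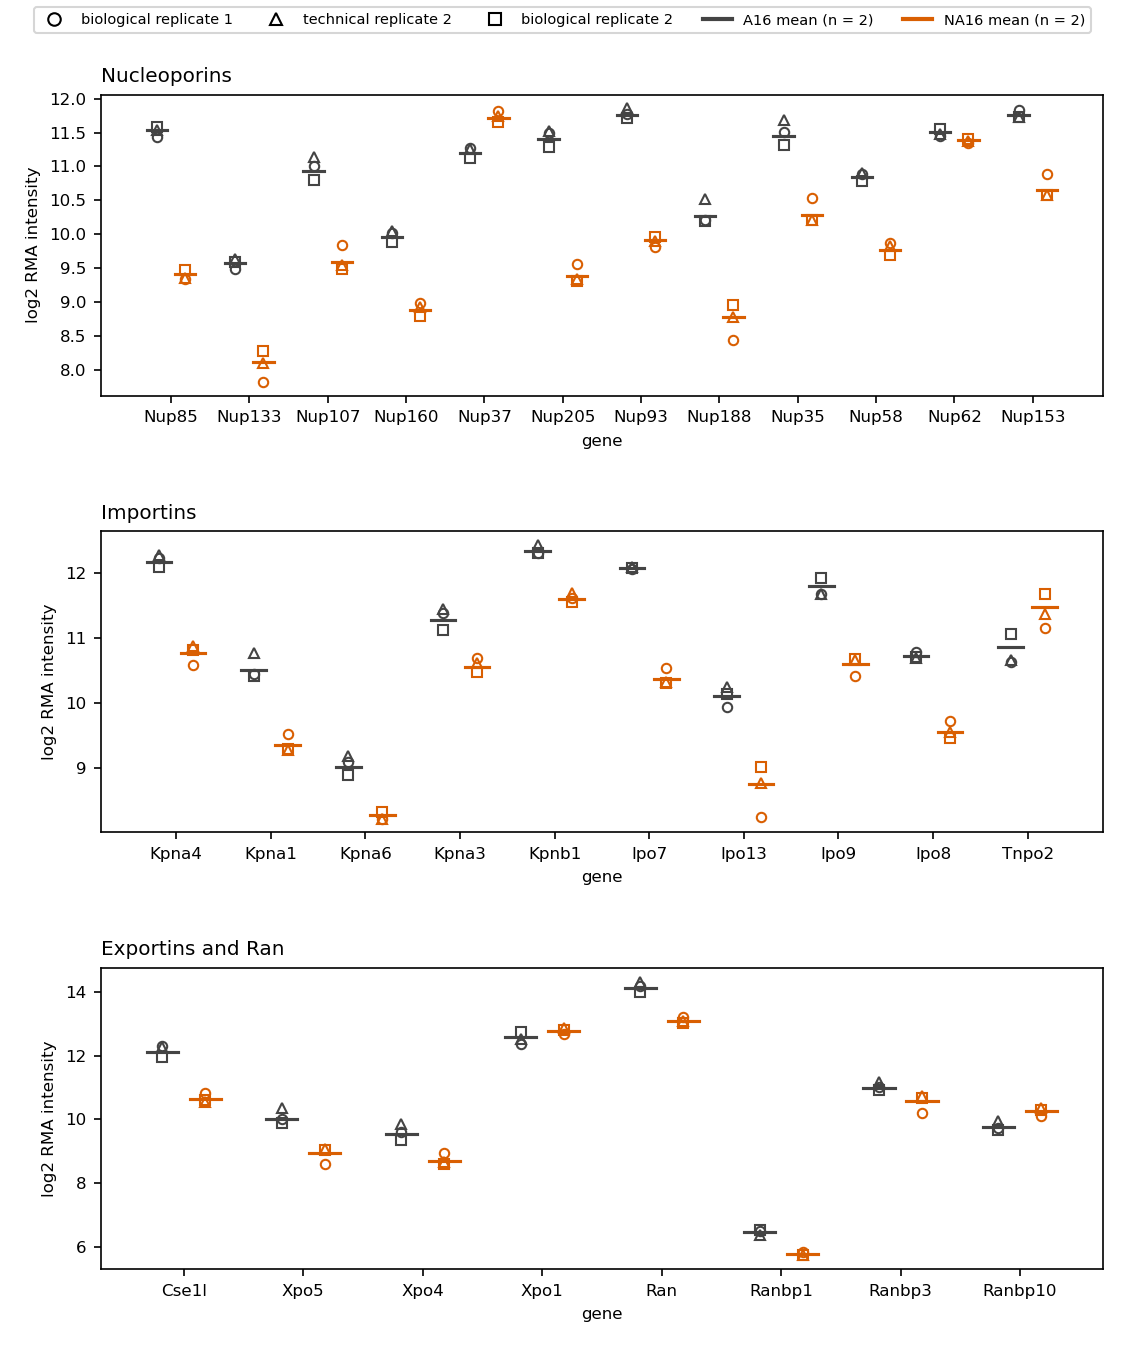
Log2 RMA intensity (y axis) on each of the 6 arrays for nucleoporins, importins, and exportins with Ran genes (x axis). Each symbol is 1 array, and the short lines give state means over n = 2 replicates. Nup85 went from 11.53 to 9.41 and Ran from 14.11 to 13.08, while the arrays of Xpo1 overlapped.

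The exportins were split. Cse1l, which returns importin alpha to the cytoplasm, read 12.29, 12.26 and 11.94 in A16 and 10.82, 10.55 and 10.61 in NA16. It fell from 12.11 ± 0.23 to 10.65 ± 0.05 (SD, n = 2), 2.75-fold lower, with a log2 change of -1.46 (SE 0.14, adjusted p = 3.6e-04). Xpo5, the exportin of microRNA precursors, read 10.01, 10.35 and 9.87 in A16 and 8.60, 9.08 and 9.05 in NA16, 2.11-fold lower, and its second probe set changed by about as much (-1.05). Xpo4, an exportin of translation factor eIF5A, read 9.61, 9.85 and 9.34 in A16 and 8.94, 8.68 and 8.59 in NA16, 1.78-fold lower (adjusted p = 0.00633). Other probe sets of Xpo4 were at -0.69 (not called) and -0.54 (called lower). Cse1l, Xpo5 and Xpo4 were lower without overlap of the arrays. Xpo1, the general exportin for proteins with leucine-rich export signals, was not called. It read 12.37, 12.52 and 12.73 in A16 and 12.67, 12.85 and 12.80 in NA16, with a log2 change of 0.19 (SE 0.13, adjusted p = 0.339) and a 95% interval of -0.13 to 0.51. Its second probe set was at 0.41 (adjusted p = 0.0511 over all probe sets), and in 0 of 17 alternatives was Xpo1 called. The transfer RNA exportin Xpot (-0.12), Xpo7 (0.11), its relative Ranbp17 (-0.08) and the actin exportin Xpo6 (-0.36, adjusted p = 0.0807) were not called either.

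Ran itself was lower. It read 14.17, 14.31 and 13.99 in A16 and 13.21, 13.09 and 13.02 in NA16, a very bright signal, and was 2.04-fold lower, with a log2 change of -1.03 (SE 0.13, adjusted p = 0.00108). Ranbp1, which helps Ran hydrolyse its GTP in the cytoplasm, read 6.52, 6.39 and 6.53 in A16 and 5.85, 5.76 and 5.75 in NA16, 1.64-fold lower (adjusted p = 0.00243). Its probe set was dim, and the call was lost in the PLIER columns (log2 change -0.46, adjusted p = 0.0888). Ranbp3, a cofactor of Xpo1, read 11.02, 11.16 and 10.91 in A16 and 10.21, 10.72 and 10.67 in NA16, 1.35-fold lower (adjusted p = 0.0373). Its call held in 9 of 17 alternatives. Without NA16 replicate 1 the log2 change was -0.33 (adjusted p = 0.293), and with technical replicate 2 averaged with biological replicate 2 in NA16 the adjusted p was 0.0727. Ranbp9 and Ranbp10 carry the name but belong to the CTLH ubiquitin ligase rather than to transport. Ranbp10 read 9.73, 9.96 and 9.67 in A16 and 10.12, 10.37 and 10.31 in NA16, 1.43-fold higher, with a log2 change of 0.52 (SE 0.12, adjusted p = 0.0126), a call that did not hold when A16 replicate 2 (adjusted p = 0.0661) or NA16 replicate 2 (0.0769) was left out, or with technical replicate 2 averaged with biological replicate 2 in NA16 (0.0505). Ranbp9 was at 0.15 (adjusted p = 0.423).

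The 20 genes that were not called had log2 changes from -0.44 to 0.23, and their 95% intervals reached from -0.85 to 0.57 at the widest. On 7 of them the NA16 arrays lay below the A16 arrays, on 1 above, and on 12 the states overlapped. Over all genes tested, called ones included, the NA16 arrays lay below for 23.9% and above for 27.8%. Of the 52 genes 17 had several probe sets. Over all 79 probe sets, tested with every other probe set of the array, 39 were lower and 2 higher, where 15% and 16.9% of all probe sets were called. In 0 of the 17 genes were probe sets called in opposite directions, and in 8 all probe sets had the same call. The spread between probe sets of a gene was at times larger than the error of each, as in Kpna1, Nup98 and Ipo5.

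**Figure D4:**
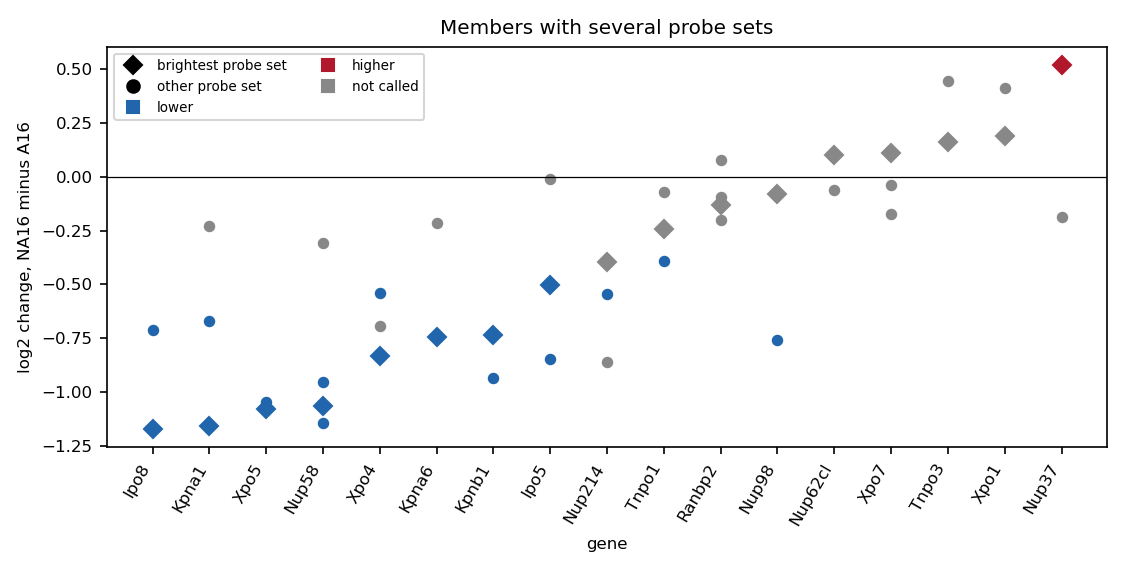
Log2 change of NA16 against A16 (y axis) of every probe set of the 17 genes with several (x axis). Diamonds are the brightest probe sets, circles the others, and colours show the call over all probe sets. Nup58 has 3 probe sets near -1 and 1 at -0.31, and Nup98 has 1 at -0.08 and 1 at -0.76.

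Promoters were examined for sequence that the genes might share, from RefSeq on the GRCr8 rat assembly, 250 bases before to 50 bases after each gene start. A promoter was found for 46 of the 52 genes, the others being Nup107, Kpna1, Kpnb1, Kpna3, Xpot and Xpo7. Matches on either strand were sought to the E-box CACGTG, the core of the NRF1 site GCATGCG, the ETS site CCGGAAG, the CCAAT box CCAAT, and the E2F sites TTTGGCG and TTTCGCG. A promoter with 1 or more matches counted once. The NRF1 core overlaps its own reverse complement, and no motif holds another. An E-box was found in 7 of 46 promoters (15.2%), against 6.7% of all 27457 promoters and 8.9% of the 11733 whose genes were tested. An E2F match was found in 15.2%, against 2.4% of all and 3.6% of tested genes, and an NRF1 core in 10.9%, against 3.5% and 5.4%. The ETS site was found in 6 of 46 promoters, against 15.1% of tested genes, and the CCAAT box in 45.7%, against 37.3%. The E-box was held by 4 of 25 promoters of lower genes and 3 of 18 of genes not called, and the E2F site by the same numbers. The CCAAT box was held by 9 of 25 and 11 of 18, the ETS site by 2 and 3, and the NRF1 core by 3 and 2. These are descriptions of letters in a window and show no binding.

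The E-box promoters of the 3 genes with the largest falls among those that hold one are printed with that of Tnpo2, the largest rise, which holds none of the 5 motifs. Capitals mark the E-box, which begins 88 bases before the start of Ipo7, 73 and 30 bases before that of Nup188 and 190 bases before that of Ran.
Ipo7 (GRCr8 chr1:173497222-173497521, plus strand): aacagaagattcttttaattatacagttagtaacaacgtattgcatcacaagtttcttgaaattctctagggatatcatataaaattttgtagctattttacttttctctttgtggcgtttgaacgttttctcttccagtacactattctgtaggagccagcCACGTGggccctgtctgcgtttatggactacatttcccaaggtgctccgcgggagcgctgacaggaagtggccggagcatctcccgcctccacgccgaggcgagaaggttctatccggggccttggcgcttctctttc
Nup188 (GRCr8 chr3:33957562-33957861, plus strand): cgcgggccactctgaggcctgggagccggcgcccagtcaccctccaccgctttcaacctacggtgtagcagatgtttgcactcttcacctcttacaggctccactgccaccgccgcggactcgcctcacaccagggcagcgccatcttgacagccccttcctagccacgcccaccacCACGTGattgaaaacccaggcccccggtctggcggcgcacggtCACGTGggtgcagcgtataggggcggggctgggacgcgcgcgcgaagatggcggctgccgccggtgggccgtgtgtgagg
Ran (GRCr8 chr12:33314241-33314540, minus strand): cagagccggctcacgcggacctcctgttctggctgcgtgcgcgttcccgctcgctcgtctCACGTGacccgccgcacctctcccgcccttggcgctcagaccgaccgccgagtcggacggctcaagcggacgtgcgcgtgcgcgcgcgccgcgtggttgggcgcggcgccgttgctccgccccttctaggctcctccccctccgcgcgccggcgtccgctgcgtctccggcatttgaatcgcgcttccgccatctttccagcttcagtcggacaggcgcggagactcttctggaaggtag
Tnpo2 (GRCr8 chr19:40024138-40024437, minus strand): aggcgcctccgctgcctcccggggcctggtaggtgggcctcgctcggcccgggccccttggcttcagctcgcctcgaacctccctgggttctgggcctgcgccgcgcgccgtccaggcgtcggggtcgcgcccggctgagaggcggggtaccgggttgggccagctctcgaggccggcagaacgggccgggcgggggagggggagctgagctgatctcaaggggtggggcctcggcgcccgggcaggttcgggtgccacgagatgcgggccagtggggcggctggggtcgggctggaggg

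The 52 genes are only a part of the transport machinery, and 40 other genes of it, from a list of 47, were measured. That list too was chosen with earlier results of these data known. Of the 40 genes 22 were lower and 1 higher, with a median log2 change of -0.47, against the same 16.9% and 21.9% of all genes. With technical replicate 2 averaged with biological replicate 2 in NA16, 20 were lower and 0 higher. Without technical replicate 2, 19 were lower. Of the 5 Ran cycle genes 3 were lower. Rangap1, which activates GTP hydrolysis by Ran in the cytoplasm, read 11.41, 11.44 and 11.27 in A16 and 9.38, 9.51 and 9.48 in NA16 and was 3.69-fold lower, with a log2 change of -1.88 (SE 0.12, adjusted p = 7.9e-05). With its probe sets averaged, the log2 change was -1.03. Rcc1, the nuclear exchange factor that loads Ran with GTP, read 10.63, 10.63 and 10.44 in A16 and between 8.90 and 9.03 on the 3 NA16 arrays, 2.91-fold lower. Nutf2, which brings Ran back into the nucleus, read 11.73, 11.69 and 11.92 in A16 and 10.88, 10.50 and 10.38 in NA16, 2.43-fold lower. These 3 genes separated the states on all arrays, while Rangrf (-0.23) and the SUMO protease gene Senp2 (-0.08) were not called.

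Other nucleoporins went the way of the scaffold in 6 of 9 cases, with 0 higher. Aaas, aladin, read 10.21, 10.11 and 10.88 in A16 and 7.83, 8.58 and 8.91 in NA16, 3.90-fold lower but with an SD of 0.51 in A16 and 0.50 in NA16. Sec13, shared by the Y complex and the COPII coat, read 12.61, 12.75 and 12.45 in A16 and 11.33, 11.14 and 11.04 in NA16, 2.68-fold lower. Gle1, which acts in messenger RNA export at the cytoplasmic face, read 9.94, 10.00 and 9.90 in A16 and 8.97, 8.79 and 8.81 in NA16, 2.13-fold lower. Over the 17 alternatives the log2 change of Gle1 lay between -1.17 and -0.64. The membrane nucleoporins Ndc1 and Pom121 (-1.08 and -0.87) and Ahctf1 (-0.82), which seats pores on chromatin, were lower as well. The basket protein gene Tpr (-0.22), the Y complex subunit gene Seh1l (-0.05) and Rae1 (0.21) were not called.

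Of 18 messenger RNA export genes 7 were lower and 1 higher. Among the lower ones, Ddx39b was called in 12 and Mcm3ap in 13 of 17 alternatives. Alyref, the adaptor that recruits the export receptor, read 12.77, 12.69 and 13.19 in A16 and 11.06, 11.12 and 10.90 in NA16, 3.90-fold lower, and with its probe sets averaged the log2 change was -1.05 in place of -1.96. Ddx39a, an export helicase, read 12.46, 12.61 and 12.40 in A16 and 10.53, 10.74 and 10.75 in NA16, 3.43-fold lower. Nxt1, the small partner of the receptor Nxf1, read 10.92, 11.30 and 10.70 in A16 and 9.65, 9.62 and 9.79 in NA16, 2.29-fold lower, whereas Nxf1 itself was at -0.30 (adjusted p = 0.0713). The 1 higher gene, Pcid2, had a log2 change of 0.39 (adjusted p = 0.0429), a call that was lost in 12 of 17 alternatives and a gene singled out after its values were seen. Of 8 adaptors of other cargo 6 were lower. Not all of these calls were firm: Phax and Nmd3, both at -0.44 (adjusted p = 0.0270 and 0.0413), were called in 11 and 8 of 17 alternatives. Srrt, which joins the nuclear cap-binding complex to RNA processing, read 11.68, 11.75 and 11.65 in A16 and 9.14, 9.45 and 9.46 in NA16 and was 4.96-fold lower. Ncbp1, the large subunit of that complex, read 11.14, 11.35 and 11.14 in A16 and 8.90, 8.92 and 8.87 in NA16, 4.95-fold lower, while the small subunit gene Ncbp2 was at 0.05 (adjusted p = 0.789). Heatr3, an adaptor for ribosomal protein import, read 10.01, 9.66 and 10.04 in A16 and 8.28, 7.94 and 7.76 in NA16 (adjusted p = 1.5e-04). The states did not overlap on any of these 3 genes.

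**Figure D5:**
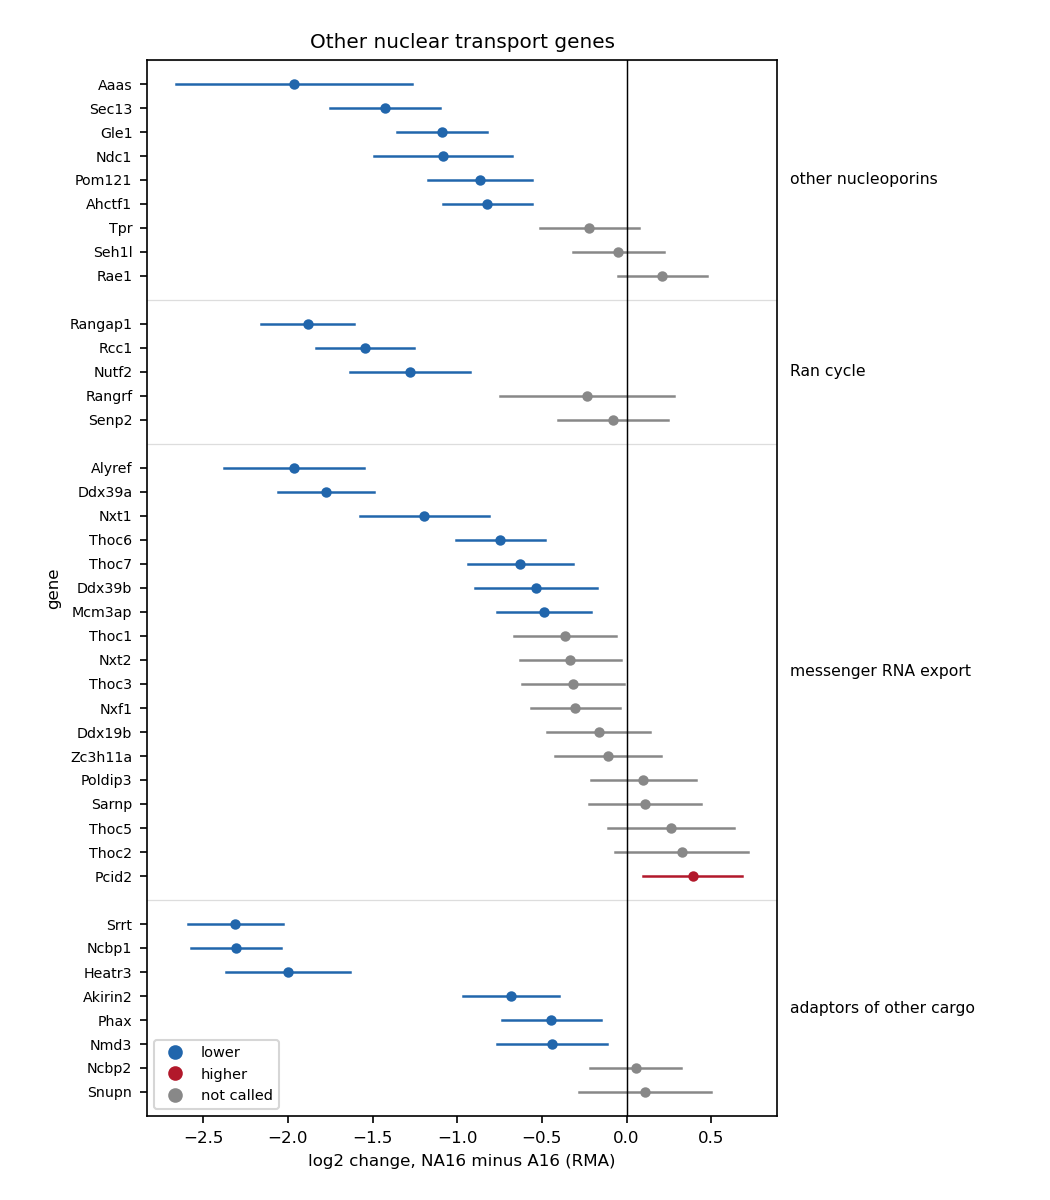
Log2 change of NA16 against A16 (x axis) for 40 further transport genes (y axis), grouped by class. Points are estimates from 2 replicates per state and bars 95% intervals of limma. Srrt and Ncbp1 lie at -2.31, Rangap1 at -1.88 and Pcid2 at 0.39.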

How the data were processed

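RNA of F111 cells was measured on 3 A16 and 3 NA16 Affymetrix rat arrays, scanned with the GeneChip Operating Software and normalized by the authors in Avadis with RMA and with PLIER, for which no versions were found in the labels or methods. The deposited values are normalized intensities on a linear scale with a lowest value near 16, so that folds of dim genes are compressed if a constant was added. The 12 deposited columns are 6 arrays under both methods, and PLIER columns were no further samples. Normalization equalised the arrays (median RMA intensity 152 to 157), so values are relative to the RNA on an array, and a change in total RNA per cell would not show.

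Gene symbols came from the platform annotation held by GEO. Without controls the array held 31042 probe sets, of which 20826 carried 1 symbol, which gave 14217 genes, and 436 with several symbols were left out. All 52 members matched the RefSeq gene table (GRCr8) under the same symbol. Intensities were taken to log2 and fitted in R 4.3.3 with limma 3.58.1 (lmFit, eBayes; 2 residual and 4.78 prior degrees of freedom), with Benjamini-Hochberg adjustment and a threshold of 0.05. The fit was tested on simulated data. The methods call the repeats biological and technical without saying whether the biological ones were separate cultures, so p-values describe the spread among these samples, which may be partly or wholly technical. The members, roles and gene lists were chosen with earlier results of these data known. All members are named; array values are given for Ran, Kpnb1, Xpo1 and Cse1l, for up to 4 called members per role and for those called against their role (Kpna2, also planned, shares its probe set with another gene and has no value), and for up to 3 called genes per further class. In all, 17 alternatives were run, 1 of them, the averaging of technical replicate 2 by its closest array, chosen after seeing the data.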

Additional observations from a re-analysis of the deposited data

How the results depend on the processing

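Of the 29 lower genes of the 52, 26 were called in every limma alternative in which they were tested; Ipo5, Ranbp1 and Ranbp3 were not. Of the 3 higher genes 0 were called in every one, and of the 20 not called 6 were called lower in at least 1 (Nup214, Nup43, Nup50, Ipo11, Xpo6 and Nup98). The number of lower genes lay between 27 and 34 in the limma alternatives. By the methods' t-test with Benjamini-Hochberg adjustment, which has only 2 residual degrees of freedom and no moderated variance, it was 0, with 0 higher, 0 lower by 2-fold, 0 nucleoporins, 0 karyopherins and 0 other transport genes in either direction, and 13 higher and 7 lower among all genes. The number of higher genes among the 52 lay between 1 and 2 when a replicate was left out (1 without A16 replicate 2 and 1 without NA16 replicate 2), and was 1 with technical replicate 2 averaged with biological replicate 2 in NA16. Leaving out a replicate leaves 1 in its state, which is then assumed to vary like the other state. Without NA16 replicate 1 or 2 the SE was 0.22 for Ipo13 and Nup62 alike, against 0.18 and 0.11 in the main fit. Those fits thus did not use the spread of each gene, and their adjusted p-values say little about single genes. The median change of -0.71 was -0.63 in the PLIER columns, -0.64 with the mean of all probe sets, -0.67 with that other averaging, -0.78 among brighter genes and -0.79 with arrays centred on their medians, and lay between -0.72 and -0.60 when a replicate was left out (-0.60 without A16 replicate 1). The count of 1 higher gene among the other transport genes was 0 in the PLIER columns, with 16 subtracted, without technical replicate 2, with its other averagings, with centred arrays and with a trended and robust variance, and between 0 and 1 when a replicate was left out. With the replicate block that count was 2 and the lower genes of the 52 were 34. Deviations of same-numbered replicates correlated at 0.56, but with 2 pairs the numbers were not taken to pair the samples. In 0 cases did a call change its direction. Arrays per state limit all of these values; dim probe sets such as those of Ranbp1, Nup210 and Nup62cl set only weak limits on a change.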
